A study of Homo sapiens with 8 samples.

Results

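Cilia are built on a ring of microtubule doublets, the axoneme, which grows from a basal body, a modified centriole of the centrosome. Cargo is carried along the axoneme by trains of intraflagellar transport (IFT) proteins, with kinesin-2 moving them outwards and dynein-2 moving them back, and the BBSome links membrane proteins to these trains. Motile cilia and sperm tails also carry outer and inner dynein arms, the motors that make the axoneme beat, while dividing cells use the same centrioles to organise the spindle. The genes described here are those whose symbol begins with IFT, BBS or CEP and a digit, or with CFAP, DNAH, DNAI, DNAL or DNAAF, and which stand in at least 1 of 3 deposited tables of changed genes. These were 32 of the 2998 genes in the tables, made up of 8 IFT genes, 2 BBS genes, 13 axoneme genes (dynein arm chains, their assembly factors and CFAP genes) and 9 CEP genes of the centrosome.

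The tables come from RNA sequencing of MDA-MB-231, an established line from a triple-negative breast cancer. There were 4 groups of 2 samples, namely untreated cells and cells exposed for 48 h to 20 µM of brazilin (a phenol of sappanwood), of its methylated form or of its acetylated form. Solvent for the untreated cells is not mentioned in the labels, and nothing there says that a group's samples were separate cultures, so q-values measure only the spread between those samples. Each table compares 1 compound with untreated cells and gives both groups' mean FPKM (fragments scaled to transcript length and sequencing depth) with the q-value and log2 fold change of the gene. All q-values listed are under 0.05 and all log2 fold changes at least 0.5 in size, which are therefore the apparent limits, and a gene not in a table has no value here. Values per sample, the spread between samples and the depth are unknown. All FPKM, log2 fold change and q-values below are those of the authors' deposited tables, and intervals are 95% intervals from a standard error bounded from the q-value.

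With brazilin all 32 genes were in the table, 29 of them lower and 3 higher than in untreated cells. Over all 2885 genes listed with brazilin, 52.4% were lower and 47.6% higher. The authors' fold changes lie below the ratio of their FPKM means by a median of 0.09 (log2), and by that ratio, with the same limit of 0.5, the genes split into 24 lower and 3 higher, against 41.6% lower over all genes past that limit. Among the 32 the gap between ratio and fold change was widest in DNAH5 (0.31), IFT74 (0.29), BBS9 (0.28) and CFAP69 (0.27). Where the higher of both means reached 1 FPKM, 24 of 25 were lower, against 56.5% over all. The median log2 fold change of the 32 genes was -0.75, against -0.51 over all genes in the table. No listed value is smaller than 0.5 in size, so the median over all genes follows from the split by direction. It is not a typical size of change. Among lower genes alone the median was -0.76 for the 32 genes and -0.68 for all listed. The 29 falls were thus of a size common in this table, from -0.51 for IFT52, just inside the limit of 0.5, to -1.12 for DNAAF11, and 2 of the 32 fell at least 2-fold, as did 9.6% of all genes listed. At least 2-fold rises were seen in 2 of the 32 and in 18.5% of all. RefSeq annotates 148 protein-coding genes with such symbols, of which the 32 make up 21.6%, while 14.3% of all 20056 annotated protein-coding genes were in the brazilin table. By subgroup these shares were 44.4% for IFT (8 of 18), 25% for BBS (2 of 8), 15.7% for the axoneme (13 of 83) and 23.1% for CEP genes (9 of 39). In bulk RNA, fewer cells that express a gene and less RNA per cell cannot be told apart.

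**Figure D1:**
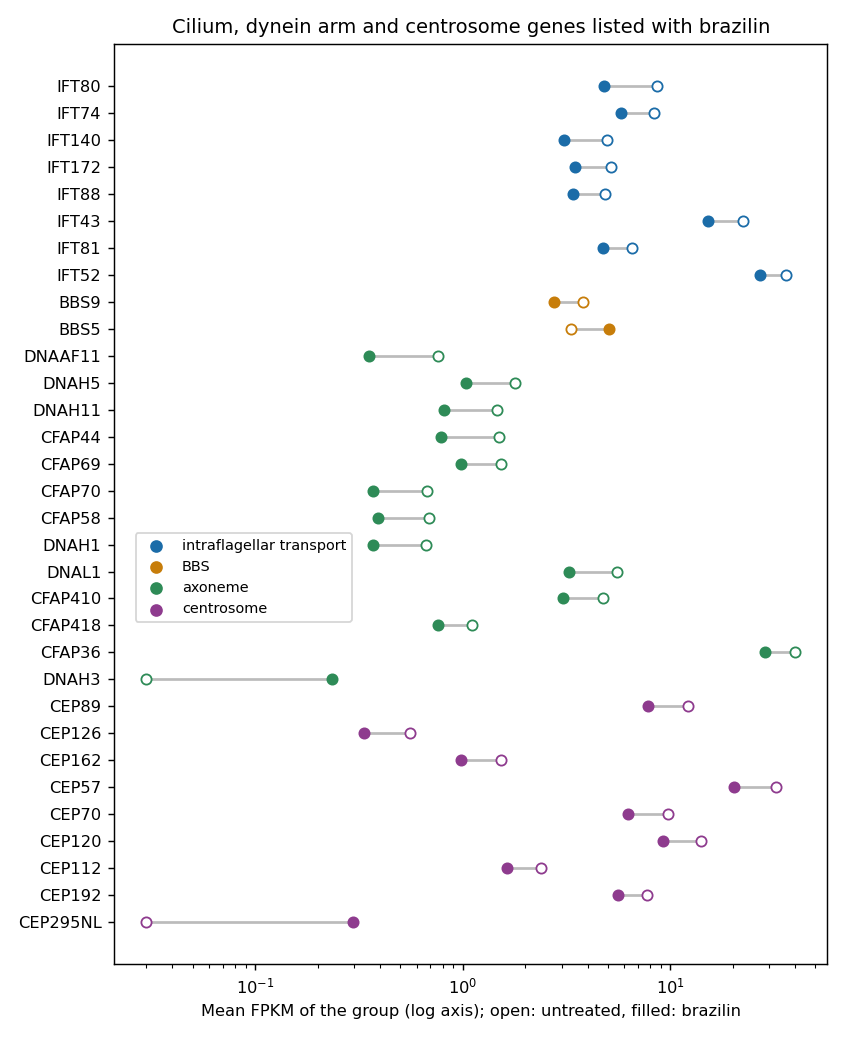
Mean FPKM of each gene in untreated cells (open circles) and with brazilin (filled circles) on a log axis, coloured by subgroup. In 29 of 32 genes the filled circle lies to the left, and the exceptions are BBS5, DNAH3 and CEP295NL.

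Transcription of ciliary genes is driven by RFX factors, which bind the X-box, and many genes of the cell cycle's later phases carry a CHR element. Promoters of 300 bases (250 before and 50 after an annotated start, RefSeq, GRCh38.p14) were available for 27 of the 32 genes and were searched on both strands. The letters were GTTGCC for the RFX half-site, a relaxed X-box of 14 letters in which both half-sites may vary, TTTGAA or TTCGAA for the CHR element and CCAAT for the CCAAT box. An RFX half-site stood in 11 of 27 genes (40.7%) and an X-box in 3 (11.1%). Among the genes of the same naming that were not in the table these shares were 47.0% and 18.0% of 100, and among all protein-coding genes 16.2% and 3.29% of 15843. The half-site share was thus above the genome's in the families both in and outside the table, and it was not higher in the table. A CHR element stood in 12 of the 27 genes (44.4%), against 21.0% of the families' other genes and 17.5% of all, and a CCAAT box in 51.9%, against 45.0% and 42.1%. CHR matches lay in 5 of 8 CEP genes and 6 of 10 axoneme genes with a promoter, but in 1 of 8 IFT genes. Those of CEP57 and CEP120 lay at -67 and 7 bases from the annotated start. All others lay farther upstream, the nearest at -126 in CFAP58. The CHR letters are mostly A and T, and transcripts of the 32 genes had a median GC content of 42.5%. For other genes in the table it was 49.2%. GC content of the promoters was not compared, and the part of the CHR element in the falls was not tested. The families' other genes had fewer promoters per gene (1.14 against 1.37), and counted by promoter the CHR shares were 35.1% of 37 and 19.3% of 114.

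The stretches of 90 bases below show the 3 genes with an X-box match, in capitals, which overlaps the half-site in DNAH1 and CEP112 but not in DNAH11. They lie at chr3:52316176-52316265 (plus strand), chr7:21542973-21543062 (plus strand) and chr17:66192256-66192345 (minus strand), with the first match starting 105, 28 and 174 bases before the annotated start. The start used for DNAH1 lies inside the gene, which is annotated from chr3:52310920. CEP112 holds the same X-box letters again, 63 bases before the start and outside the stretch shown.
DNAH1: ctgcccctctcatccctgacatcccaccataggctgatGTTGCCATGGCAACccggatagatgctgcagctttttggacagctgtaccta
DNAH11: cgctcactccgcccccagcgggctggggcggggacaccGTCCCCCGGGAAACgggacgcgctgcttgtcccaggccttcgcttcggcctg
CEP112: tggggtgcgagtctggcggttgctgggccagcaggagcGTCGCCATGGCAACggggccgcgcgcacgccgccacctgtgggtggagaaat

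The RFX half-site, in capitals and read on either strand, is shown for 2 IFT genes that fell and for BBS5, which rose. IFT74, which also fell, holds the half-site too and is not shown. The part of the half-site in either direction was not tested. The stretches shown are chr13:20567117-20567206, chr12:110124315-110124404 and chr2:169479438-169479527, all on the plus strand.
IFT88: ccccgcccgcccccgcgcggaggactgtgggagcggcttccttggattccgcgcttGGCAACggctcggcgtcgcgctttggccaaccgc
IFT81: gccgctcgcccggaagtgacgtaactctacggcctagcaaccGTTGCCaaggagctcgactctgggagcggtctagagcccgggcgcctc
BBS5: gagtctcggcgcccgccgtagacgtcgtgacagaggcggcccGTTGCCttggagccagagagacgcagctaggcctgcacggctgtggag

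IFT genes in the table all fell, 8 of 8, with a median log2 fold change of -0.67. Their levels were moderate, from 4.86 to 36.3 FPKM in untreated cells. IFT80, a peripheral subunit of the outward-moving IFT-B complex, showed the largest fall of the 8, from 8.64 to 4.81 FPKM (log2 -0.94, interval -1.14 to -0.73, q = 1.72e-19). IFT172, the other peripheral IFT-B subunit among them, went from 5.20 to 3.47 FPKM (log2 -0.68, interval -0.90 to -0.47). The tubulin-binding pair of the IFT-B core was also lower. IFT74 went from 8.33 to 5.77 FPKM (log2 -0.82, interval -1.07 to -0.56) and its partner IFT81 from 6.54 to 4.76 FPKM (log2 -0.54, interval -0.80 to -0.28). Of the remaining core subunits IFT88, whose loss prevents cilium assembly in mice, fell from 4.86 to 3.39 FPKM (log2 -0.65, interval -0.96 to -0.33). IFT52, a scaffold subunit of the core, fell from 36.3 to 27.1 FPKM (log2 -0.51, interval -0.67 to -0.35). The IFT-A complex, which serves the return journey, was represented by IFT140 at 4.95 and 3.08 FPKM (log2 -0.74, interval -0.997 to -0.491) and by IFT43 at 22.4 and 15.2 FPKM (log2 -0.63, interval -0.93 to -0.33). Intervals of neighbours in this order overlap, so the 8 falls cannot be ranked beyond their error, although that of IFT80 lies below that of IFT52.

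Counted over whole complexes, with subunits of other names included, 3 of 6 IFT-A genes, 4 of 11 IFT-B core genes and 3 of 6 peripheral IFT-B genes were lower and none was higher. This grouping was made after the values were seen and describes the table only. The dynein-2 motor for return transport had 3 of 5 genes lower, and none of 4 kinesin-2 genes was in the table. Over all annotated protein-coding genes 14.3% were in the table, so with 4 genes no difference between the motors can be read from this. DYNC2H1, the dynein-2 heavy chain, went from 1.88 to 0.960 FPKM (log2 -1.05, interval -1.28 to -0.82).

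**Figure D2:**
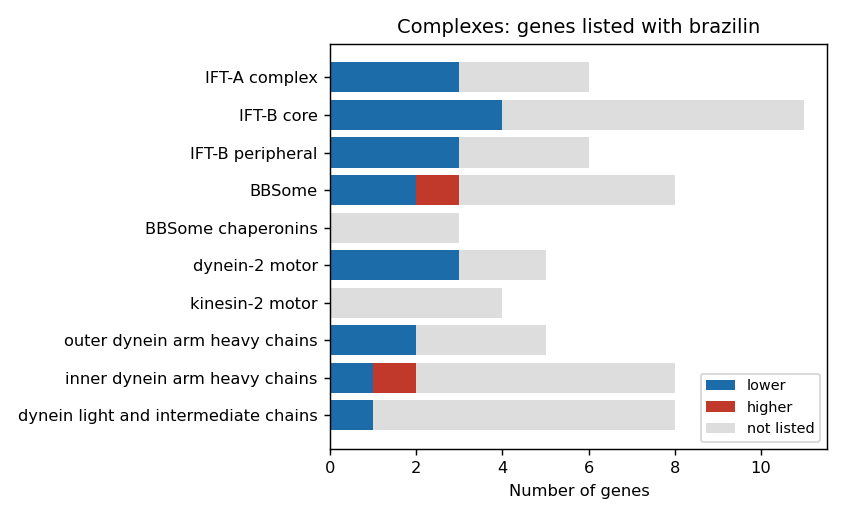
Number of genes of each complex that were lower, higher or not in the brazilin table, as stacked bars from 0. The genes of the IFT and dynein-2 complexes that are in the table were all lower. The kinesin-2 and BBSome chaperonin bars hold only genes that are not in the table, which holds 14.3% of all annotated protein-coding genes.

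The BBSome genes BBS9 and BBS5 went in opposite directions. BBS9, a scaffold subunit, stood at 3.82 FPKM in untreated cells and 2.76 FPKM with brazilin (log2 -0.75, interval -1.03 to -0.46, q = 3.14e-07). BBS5, the subunit that binds phosphoinositides, stood at 3.34 and 5.08 FPKM (log2 0.51, interval 0.23 to 0.80, q = 0.000427) and thus rose. BBS5 shares exon bases with a further protein-coding gene on the same strand (AC093899.2 in GENCODE), so its reads may be divided between both. BBIP1, a small BBSome subunit, fell (log2 -0.60), and the other 5 of 8 BBSome genes and the 3 BBSome chaperonin genes were not in the table.

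Axoneme genes held the lowest levels of the 4 subgroups, with a median of 1.47 FPKM in untreated cells, and 12 of 13 fell (median log2 of all 13, -0.90). The group was set by symbol and also holds genes of proteins outside the axoneme, such as DNAAF11 and CFAP410. The dynein arm genes that fell were those of the outer arm heavy chains DNAH5 and DNAH11, the outer arm light chain DNAL1 and the inner arm heavy chain DNAH1. DNAH5 went from 1.79 to 1.04 FPKM (log2 -1.09, interval -1.31 to -0.87, q = 6.59e-22) and DNAH11 from 1.47 to 0.815 FPKM (log2 -0.94, interval -1.21 to -0.67). By the ratio of FPKM means the fall of DNAH5 was smaller (log2 -0.78) and under 2-fold. DNAL1, which binds the motor domain of the outer arm heavy chain, was the best expressed of them at 5.54 and 3.25 FPKM (log2 -0.83, interval -1.02 to -0.64). DNAH1 stood lower still, at 0.665 and 0.370 FPKM (log2 -0.88, interval -1.24 to -0.52). None of the 5 DNAI genes, which encode intermediate chains and related proteins, was in the table. Over all annotated protein-coding genes 14.3% were in it, so an absence among 5 genes cannot be read as a difference.

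DNAH3, an inner arm heavy chain, was the exception among axoneme genes and rose from 0.030 to 0.235 FPKM (log2 2.85, interval 1.64 to 4.05, q = 3.65e-06). Its level in untreated cells is close to the lowest value in the tables, 0.01 FPKM. DNAAF11, a cytoplasmic factor for the preassembly of dynein arms and the 1 assembly factor of 11 in the table, fell from 0.765 to 0.355 FPKM (log2 -1.12, interval -1.84 to -0.41).

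All 7 CFAP genes in the table were lower. They make up 13.7% of the 51 annotated, near the 14.3% of all annotated protein-coding genes that were in the table. The best expressed was CFAP36, an ARL3-binding protein, at 39.9 and 28.6 FPKM (log2 -0.57, interval -0.75 to -0.38), which was also the highest level of all 32 genes. CFAP410, a basal body protein linked to retinal disease, went from 4.73 to 3.03 FPKM (log2 -0.72, interval -1.09 to -0.35). The genes of sperm flagellum proteins CFAP44, CFAP69, CFAP70 and CFAP58 had log2 fold changes between -0.90 and -0.92, at 0.675 to 1.54 FPKM in untreated cells and 0.370 to 0.985 FPKM with brazilin. CFAP418, a photoreceptor protein gene, stood at 1.11 and 0.760 FPKM, with an interval (-1.24 to -0.05) that nearly reaches 0. Those 4 and CFAP418 were under 2 FPKM in both groups, and their intervals are wider than that of CFAP36.

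Of the 9 CEP genes 8 fell, with log2 fold changes between -0.56 and -0.80. CEP57, a pericentriolar protein that keeps centrioles engaged, fell from 32.3 to 20.3 FPKM (log2 -0.76, interval -0.90 to -0.61) with the smallest q-value of the 32 genes (2.82e-25). CEP120, which promotes centriole elongation, went from 14.1 to 9.21 FPKM (log2 -0.71, interval -0.86 to -0.56). CEP89, a protein of the distal appendages by which a centriole docks at the membrane, went from 12.1 to 7.83 FPKM (log2 -0.80, interval -0.99 to -0.62). These 3 had at least 10 FPKM in untreated cells and narrow intervals, none of which reaches the limit of 0.5. CEP192, the scaffold that recruits mitotic kinases to the pericentriolar material, showed the smallest fall, from 7.69 to 5.61 FPKM (log2 -0.56, interval -0.72 to -0.40). CEP70, a binding partner of gamma-tubulin, stood at 9.72 and 6.24 FPKM, and CEP112 and CEP126, less studied coiled-coil proteins, at 2.38 and 1.64 FPKM and at 0.555 and 0.335 FPKM.

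CEP295NL was the exception, at 0.030 FPKM in untreated cells and 0.295 FPKM with brazilin (log2 3.32, interval 1.08 to 5.55, q = 0.00368). It shares exon bases with TIMP2 on the same strand, a gene not in the table, so its reads cannot be assigned with certainty. The 3 genes that rose thus comprised 2 that were near the lowest level listed in untreated cells, and BBS5. All 3 share exon bases with another annotated gene, as do 15 of the 32 in all. Among the genes that fell, IFT80 overlaps SMC4 on the opposite strand, a condensin gene that was lower too (39.0 to 24.8 FPKM). IFT80, IFT43, CFAP44 and CEP112 each share exon bases with a protein-coding gene on the same strand. Reads of these genes that fell may therefore be divided as well.

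**Figure D3:**
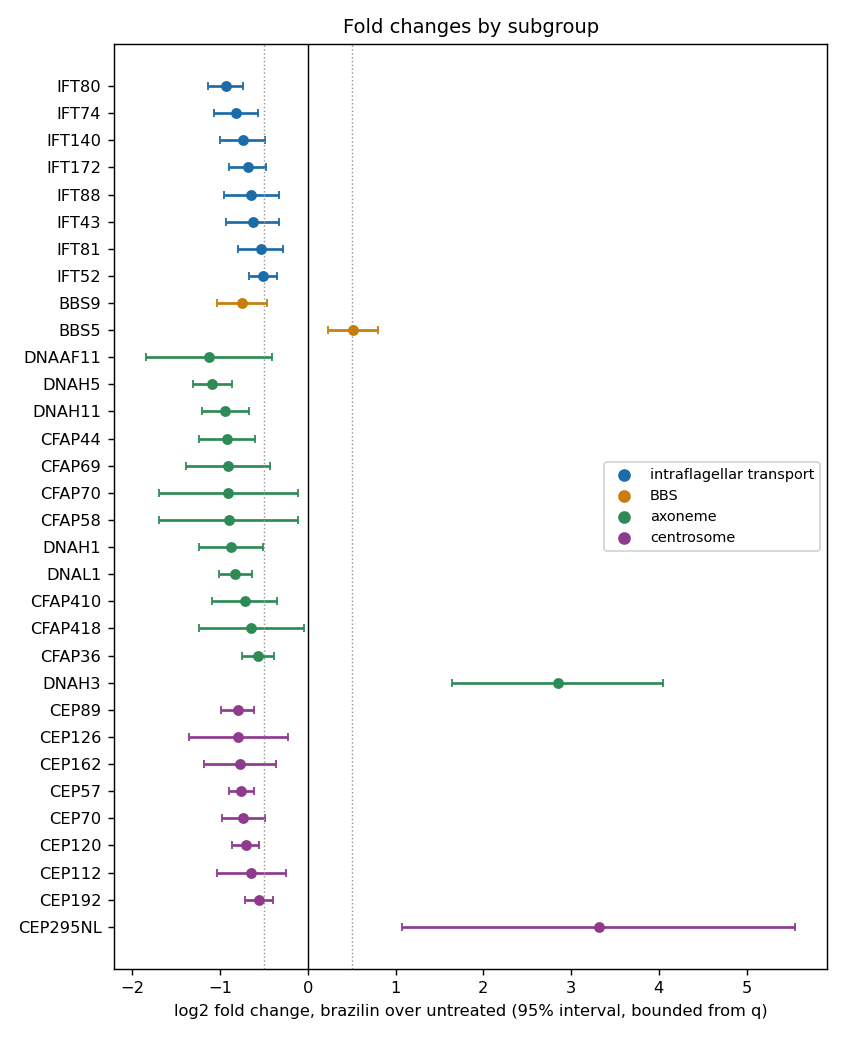
Log2 fold change of each gene, brazilin over untreated, with 95% intervals bounded from the q-value and dotted lines at the limit of 0.5 in either direction, coloured by subgroup. The falls lie between -0.51 and -1.12 in every subgroup, and the widest intervals belong to CEP295NL and DNAH3.

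Medians by subgroup were -0.67 for IFT, -0.74 for CEP and -0.90 for axoneme genes. The ranges overlapped, from -0.94 to -0.51 for IFT and from -1.12 to -0.57 for the axoneme genes that fell. Axoneme genes also stood apart in abundance, since the median in untreated cells was 1.47 FPKM for them, 7.43 FPKM for IFT and 7.69 FPKM for CEP genes, and its part in their larger median was not tested. By the ratio of FPKM means the medians were -0.54 for IFT, -0.63 for CEP and -0.78 for axoneme genes, in the same order. With 1 FPKM added to both means before the ratio, they became -0.47 for IFT, -0.39 for CEP and -0.38 for axoneme genes, so that the order of the subgroups turned round.

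Length of the transcript moved with direction in the brazilin table. Of the other genes listed with brazilin, 22.7% were lower in the shortest of 10 classes of transcript length and 80.1% in the longest. The longest annotated transcripts of the 32 genes ran from 848 bases (IFT43) to 15633 bases (DNAH5), with a median of 3803 against 3540 bases for other genes in the table. Other genes spread over the length classes as the 32 genes are were lower in 56.0% of cases, against 90.6% of the 32. For IFT genes the same values were 47.1% and 100%, for axoneme genes 60.7% and 92.3%, and for CEP genes 57.6% and 88.9%. The share for other genes came to 66.4% when 5 classes of length were crossed with 5 classes of GC content. By subgroup this share was 59.9% for IFT, 68.3% for axoneme and 72.3% for CEP genes, each nearer the subgroup's own share than by length alone. These shares are descriptions, and the part of transcript length and GC content in the falls was not tested further.

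**Figure D4:**
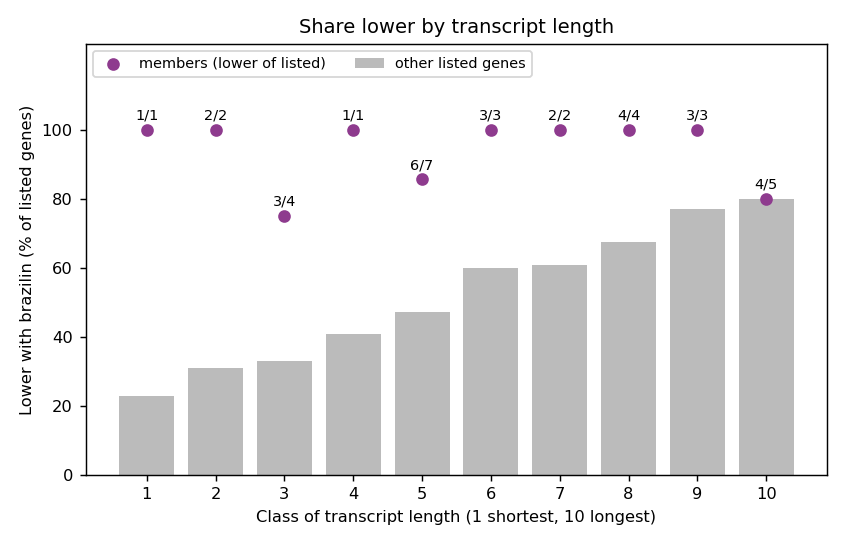
Percentage of genes in the brazilin table that were lower, by 10 classes of transcript length, for other genes (bars) and for the 32 genes (points, labelled with lower over listed). Bars climb from 22.7% to 80.1%, and the points lie above the bars in classes 1 to 9 and level with the bar in class 10, where 4 of 5 genes were lower.

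Genes of the same pathways with other names, in lists chosen with earlier results of these data known, gave a similar split. Of 187 genes in 7 lists 44 (23.5%) were in the brazilin table, 37 lower and 7 higher (median log2 -0.60), beside 14.3% of all annotated protein-coding genes. That is 84.1% lower, while other genes of the same transcript length were lower in 57.8% of cases. GC content was not matched in that share, and these counts describe the lists only. IFT, BBSome and motor genes of other names had 8 of 21 (38.1%) in the table, all lower, led by the BBSome regulator gene LZTFL1 (19.7 to 11.035 FPKM), the IFT-A adaptor gene TULP3 (50.4 to 35.6 FPKM) and DYNC2H1. The transition zone and basal body had 9 of 31 (29%), all lower, among them TTBK2, the kinase that starts ciliogenesis (4.57 to 3.10 FPKM), and the genes of the transition zone proteins NPHP4 (4.80 to 3.48 FPKM) and TMEM67 (3.13 to 2.11 FPKM).

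Further axoneme genes gave 6 lower and 1 higher of 36 (19.4% in the table). RUVBL2, an ATPase with many roles outside the cilium, was the higher one (83.9 to 132 FPKM), and SPEF2, the gene of a sperm tail protein, fell (1.25 to 0.610 FPKM). Centriole and pericentriolar genes gave 6 lower and 2 higher of 50 (16% in the table, near the 14.3% of all genes), with falls of AKAP9, a scaffold that anchors signalling enzymes at the centrosome and Golgi (8.43 to 4.06 FPKM), CKAP5, a microtubule polymerase (57.2 to 38.4 FPKM), and PCM1, the core of centriolar satellites (19.5 to 14.4 FPKM). Cilium disassembly and length control gave 3 lower and 1 higher of 16 (25%), the 3 being KIF2C (60.9 to 42.1 FPKM), NEK2 (30.1 to 21.4 FPKM) and KIF24 (5.49 to 4.11 FPKM), of which KIF2C and NEK2 also act in mitosis. Hedgehog signalling gave 4 lower and 1 higher of 18 (27.8%), with the transcription factor gene GLI3 (3.97 to 2.60 FPKM), the ciliary receptor gene GPR161 (3.77 to 2.48 FPKM) and the co-receptor gene CDON (1.73 to 1.18 FPKM) lower.

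Ciliogenesis transcription factors gave 1 lower and 2 higher of 15 (20%, beside 14.3% of all annotated protein-coding genes). E2F5 fell from 11.2 to 5.89 FPKM (log2 -0.98). The multiciliation regulator MCIDAS rose from 0.905 to 1.69 FPKM (log2 0.82, interval 0.21 to 1.43). GMNC, a further one, rose from the lowest value of 0.01 to 0.075 FPKM. Its interval (log2 0.03 to 8.39) nearly reaches 0. MCIDAS and GMNC were the 2 of 7 markers of multiciliated cells in the table, and FOXJ1, their downstream factor, was not in it. Of 6 markers of mesenchymal-like breast cancer lines 3 were in the table, so the labelled cell type could be checked only in part. FN1 fell from 356 to 119 FPKM (log2 -1.67), while CD44 (132 to 226 FPKM) and SNAI2 (4.57 to 7.13 FPKM) rose. Markers of other cells gave 1 of 8 for luminal epithelium (CLDN7, lower at 34.7 and 16.0 FPKM), 1 of 6 for leukocytes (higher), 1 higher and 1 lower of 5 for endothelium and 0 of 5 for fibroblasts. Since 14.3% of all annotated protein-coding genes were in the table, so few markers per cell type show no cell type as present or absent.

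The table of acetylated brazilin held 1 of the 32 genes, CEP162, and that of methylated brazilin held none. Over the 193 genes listed with acetylated brazilin, 37.8% were lower. The table holds 187 of the annotated protein-coding genes (0.932%), and 1 of the 148 with symbols of these families (0.676%), a share near that background. Methylated brazilin had 11 genes (0.0548%). CEP162, which acts at the distal end of centrioles and promotes assembly of the transition zone, stood at 1.54 FPKM in untreated cells, 1.05 FPKM with acetylated brazilin and 0.980 FPKM with brazilin. Its log2 fold change was -0.53 (interval -1.01 to -0.04, q = 0.0338) with acetylated brazilin and -0.78 (interval -1.18 to -0.37, q = 0.000188) with brazilin. Both comparisons share the untreated samples. The difference of -0.25 between the compounds at the same dose and time has an interval from -0.88 to 0.39, which includes 0 (two-sided normal test on fold changes and their bounded errors, adjusted p = 0.624 over the 84 genes in both tables). AKAP9, the 1 gene of the further lists that both tables hold, had log2 fold changes of -0.65 with acetylated brazilin and -1.17 with brazilin, a difference of -0.52 (interval -0.72 to -0.32, adjusted p = 2.26e-06 in the same test, which 38 of the 84 genes passed). For the other 31 genes the derivatives have no values here, and methylated brazilin has none for CEP162 either. Those responses cannot be set beside the response to brazilin.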

How the data were processed

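RNA was measured in 8 samples, 2 per group. Per the file headers, the authors deposited mean FPKM values by group for the genes they called significant. They also deposited each gene's q-value and its log2 fold change, which is treated over untreated by its sign. The tables hold no column of values per sample. Tools named without role or version, per the submitters' processing notes, are DESeq2, RSEM, Bowtie, StringTie and HISAT, with the builds hg38, GRCh38 and mm10. Strand use and depth are not stated in the labels. Whether genes on opposite strands that share exon bases were separated is therefore unknown, and strand cannot separate such genes on the same strand. Of the 32 genes, 15 share exon bases with another gene of GENCODE release 29. No gene had a near-identical copy (BLAST+ 2.17.0, at least 98% identity over 80% of the coding sequence).

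The error of a fold change was bounded as its size divided by the normal quantile of its q-value, which holds for an unshrunken Wald test. The test between compounds took both errors as independent, although the untreated samples are shared, and held only genes past the limits in both tables. The outcome of its trial on simulated data is not given here. P-values were adjusted by Benjamini-Hochberg. Transcript length and GC content are those of the longest protein-coding GENCODE transcript, found for 2866 of 2885 brazilin genes. Positions and promoters are from RefSeq, GRCh38.p14. Pathway lists came to 233 entries with markers, 1 of them without a gene ID. The genes, lists and tests were chosen with earlier results of these data known. Every gene of the set is named, with full values for those that changed at least 2-fold, had at least 10 FPKM, stood in more than 1 table or belonged to the IFT and BBS subgroups, and others were added after their values were seen. Of each pathway list the 3 genes with the smallest q-values are named, except 1 that is not reported here, and further ones were added after their values were seen. Python 3.11.15, pandas 2.3.3 and scipy 1.17.1 were used.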

Additional observations from a re-analysis of the deposited data

How the results depend on the processing

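No paired analysis was possible because the tables hold no values per sample, and leaving out a replicate could not be run for the same reason. The brazilin count of 32 (29 lower, 3 higher) became 4 (2 lower) at a log2 limit of 1 and 9 (9 lower, 0 higher) by the ratio of FPKM means with a pseudocount of 1 FPKM, which compresses low genes. With older symbols matched it became 49 (44 lower, 5 higher), and without genes that share exon bases with another gene 17 (17 lower, 0 higher), the latter chosen after seeing the data. At 1 FPKM or more in the higher group 1 gene was higher. By the ratio of FPKM means 24 were lower and 3 higher. The ratio lies above the deposited fold change by a median of 0.09 over all genes in the table, and re-centring by it, also chosen after seeing the data, gave 25 lower and 3 higher. The acetylated brazilin count of 1 (CEP162) became 0 at q under 0.01 or 0.001, at a log2 limit of 1 and with a pseudocount of 1. The medians of IFT, axoneme and centrosome genes were -0.54, -0.78 and -0.63 by the ratio of FPKM means and -0.47, -0.38 and -0.39 by that ratio with a pseudocount of 1. The BBS median of -0.12, of 2 opposite genes, became 0.067 by the ratio and 0.063 with a pseudocount of 1. Other genes of the same length were lower in 56.0% of cases and, with 5 by 5 classes of length and GC content, in 66.4%, chosen after seeing the data. A covariance for shared controls left CEP162 past no threshold (adjusted p = 0.393).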
